A study of Mus musculus with 6 samples.

Results

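The angiomotins and the YAP/TEAD target genes are a set of 10 genes (Amot, Amotl1, Amotl2, Ctgf, Cyr61, Ankrd1, Axl, Lats2, Yap1 and Tead1) among 19087 genes with a symbol on the arrays. Each was taken by its symbol from features annotated with exactly 1 gene, and the annotation lists Ctgf under its current symbol Ccn2 and Cyr61 under Ccn1. All 10 were measured, by 18 of the 31700 features with exactly 1 symbol. The set was chosen by name with scores of the same contrast already known, in which Amotl2 stood near the top, so every score of these genes below is a description and none is a test. MMH (Met murine hepatocytes) cells are a mouse line with liver progenitor traits, placed by the sample titles at embryonic day 14. MMH-Prox1 cells, which carried a vector that expresses Prox1, a homeobox protein that binds DNA, were set against MMH-pCDNA3.1 cells, which carried the empty vector, with no other treatment named for either. The number of clones or cultures behind each is not given in the sources used here, so any spread below is a spread between arrays and may be technical. Each of 6 two-colour arrays held both RNAs, with the RNA of Prox1 cells labelled with the dye Cy5 on replicates 1 to 3 (Prox1-Cy5 arrays) and with Cy3 on replicates 4 to 6.

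Values are the deposited scores, signed ratio-like numbers whose spread over features (SD) was 1 in each column, and neither fold changes nor levels. The columns of replicates 4 to 6 held identical values in every feature and count as 1 Prox1-Cy3 profile, which leaves 4 distinct profiles. A score is a multiple of that SD, its log base and centring are unknown, and its direction is not stated in the labels. Positive scores likely mean more RNA with Prox1, because the feature that carries the Prox1 signal scored 5.27 ± 0.14 on the Prox1-Cy5 arrays (SD, n = 3) and 6.60 in the Prox1-Cy3 profile, although the other 2 Prox1 features lay near 0. Arrays of opposite orientation correlated far less (r = 0.397 to 0.444 over features) than the Prox1-Cy5 arrays among themselves (r = 0.915 to 0.930). For each gene the mean score gives both orientations equal weight. A ratio does not show whether a gene was expressed, so the liver identity of the cells cannot be checked by level here.

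In the Hippo pathway a kinase cascade ending in Lats1 and Lats2 phosphorylates the coactivator YAP (Yap1) and keeps it out of the nucleus, where it would otherwise bind the TEAD transcription factors, Tead1 among them, and switch on their targets. The angiomotins are scaffold proteins of tight junctions and the actin cortex that bind YAP directly and hold it in the cytoplasm. Several targets, Amotl2 and Lats2 included, feed back on YAP. In the liver this pathway limits organ size, and active YAP favours progenitor and bile duct traits over hepatocyte traits.

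The TEAD factors recognise a core of the letters GGAATG, which was searched on both strands in the RefSeq promoter windows of the GRCm38.p6 build, from 250 bases before to 50 bases after each gene's start. Windows were listed for 8 of the 10 genes (9 windows, since Lats2 had 2), and Ctgf and Tead1 had none in the table. The core was found in 6 of these 8 genes, in Amotl2, Cyr61, Ankrd1, Axl, Yap1 and Lats2, and not in the windows of Amot and Amotl1. Over the whole table it was found in 16.6% of 27025 genes and in 14.7% of 32851 windows. The windows of Amotl2 (chr9:102717554-102717853, plus strand), Ankrd1 (chr19:36119795-36120094, minus strand) and Cyr61 (chr3:145649936-145650235, minus strand) are printed because these textbook targets carry the same core and yet scored differently. Each runs 5′ to 3′ along its gene, with the core in capitals (in Amotl2 and Cyr61 as its reverse complement, since it lies on the opposite strand), and the core begins 65 bases before the start in Amotl2, 210 and 123 bases before it in Ankrd1, and 103 bases before it in Cyr61.
Amotl2: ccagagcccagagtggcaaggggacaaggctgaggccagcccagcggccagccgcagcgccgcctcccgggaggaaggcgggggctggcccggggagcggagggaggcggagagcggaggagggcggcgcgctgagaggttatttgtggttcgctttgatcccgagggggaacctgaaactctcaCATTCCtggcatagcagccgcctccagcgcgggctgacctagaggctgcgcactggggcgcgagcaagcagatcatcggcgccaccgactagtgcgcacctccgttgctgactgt
Ankrd1: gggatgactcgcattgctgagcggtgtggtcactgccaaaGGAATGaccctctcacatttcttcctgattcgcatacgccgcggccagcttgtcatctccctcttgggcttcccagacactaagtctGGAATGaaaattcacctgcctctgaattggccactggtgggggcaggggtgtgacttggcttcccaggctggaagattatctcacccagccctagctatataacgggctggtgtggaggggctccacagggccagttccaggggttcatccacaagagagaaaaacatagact
Cyr61: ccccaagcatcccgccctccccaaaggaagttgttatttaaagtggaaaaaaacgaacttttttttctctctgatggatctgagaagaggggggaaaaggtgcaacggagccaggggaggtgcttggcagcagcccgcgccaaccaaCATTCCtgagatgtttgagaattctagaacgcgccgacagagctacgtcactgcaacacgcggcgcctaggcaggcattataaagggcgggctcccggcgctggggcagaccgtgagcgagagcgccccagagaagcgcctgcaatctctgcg
A match is a stretch of letters and does not show that a TEAD factor was bound there.

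Among the angiomotins, Amotl2 stood far above its relatives. It scored 3.33, 3.38 and 3.52 on the Prox1-Cy5 arrays and 4.90 in the Prox1-Cy3 profile, a mean score of 4.16, which was rank 12 from the top of 28617 genes and unnamed features. All 4 profiles were high, and none came near 0. Amotl1, a scaffold of the same family, averaged 0.68, 0.77 and 0.87 over its 2 features on the Prox1-Cy5 arrays and 0.89 in the Prox1-Cy3 profile. Behind this narrow range its features parted: feature 1 scored 0.80, 0.60 and 1.12 on the Prox1-Cy5 arrays and 2.59 in the Prox1-Cy3 profile, and feature 2 scored 0.57, 0.95 and 0.63 on the Prox1-Cy5 arrays and −0.81 in the Prox1-Cy3 profile. The agreement of the gene mean across orientations is thus an average of features that went apart in the Cy3 profile. Amot, the founding member, whose product was first described as binding angiostatin, scored −0.12, −0.18 and 0.091 on the Prox1-Cy5 arrays and −0.081 in the Prox1-Cy3 profile. Its 3 features had mean scores of −0.019, −0.051 and −0.15, all close to 0. The family therefore ran from a score near 0 for Amot to one of the highest of the arrays for Amotl2. As gene means the 3 genes did not overlap over the profiles. Taken singly, Amotl1 feature 2 had a mean score of −0.048, among those of the Amot features, but as an average of opposite signs. On each Prox1-Cy5 array it lay above every Amot feature, and in the Prox1-Cy3 profile below every one.

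**Figure D1:**
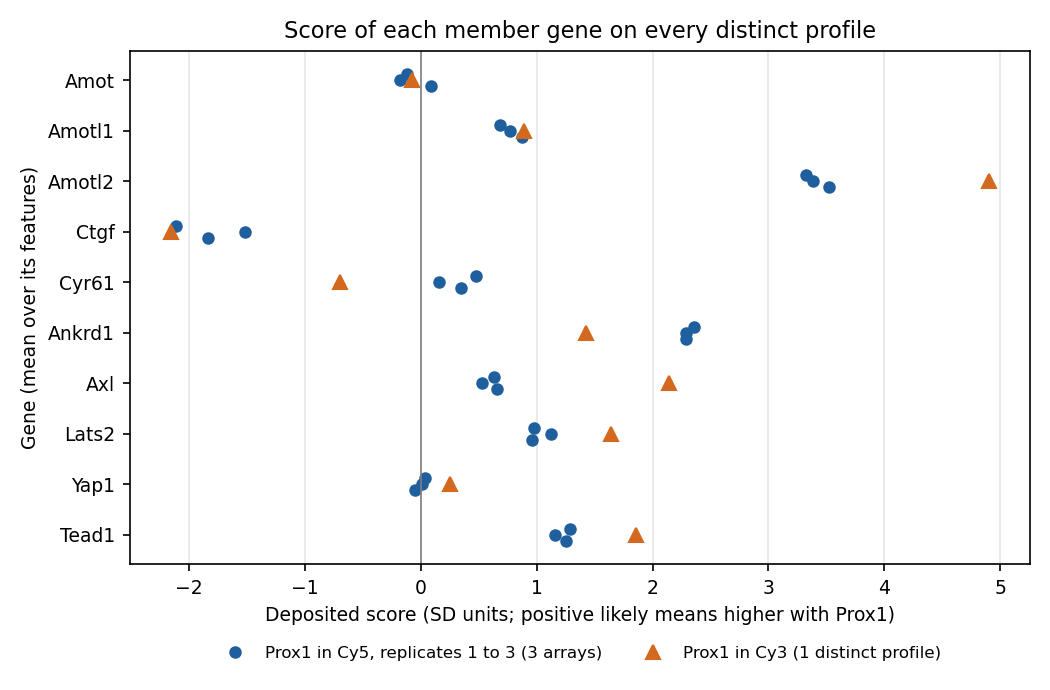
Deposited score in SD units (horizontal axis) of each of the 10 genes, averaged over its features, with circles for the 3 Prox1-Cy5 arrays and a triangle for the single Prox1-Cy3 profile. Amotl2 lies to the right of all others with 3.33 to 4.90, Ctgf to the left with −2.16 to −1.52, and Cyr61 has its circles above 0 and its triangle at −0.70.

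The secreted target Ctgf lay at the other end of the set. Its product, connective tissue growth factor, is a matricellular protein and a classic readout of YAP. Ctgf scored −2.12, −1.52 and −1.84 on the Prox1-Cy5 arrays and −2.16 in the Prox1-Cy3 profile, with a mean score of −1.99 and rank 630 from the bottom. It was low on every profile, and its Cy3 value fell just below the lowest Cy5 array. Cyr61, which encodes a matricellular protein of the same family and is commonly read beside Ctgf, scored 0.48, 0.16 and 0.35 on the Prox1-Cy5 arrays and −0.70 in the Prox1-Cy3 profile. The orientations gave opposite signs, so no direction can be given for Cyr61. Ctgf and Cyr61 had 1 feature each, so neither can be set beside a further feature of its gene.

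Ankrd1 and Axl scored above 0 on every profile. Ankrd1, an ankyrin repeat protein known as a stress-induced cofactor of heart muscle, scored 2.36, 2.29 and 2.29 on the Prox1-Cy5 arrays and 1.42 in the Prox1-Cy3 profile, with a mean score of 1.87 and rank 273 from the top. Its Prox1-Cy5 arrays were the most alike of the 10 genes (SD 0.040), and the Cy3 profile was lower than all of them. Axl, a receptor tyrosine kinase that binds the ligand Gas6, scored 0.63, 0.53 and 0.66 on the Prox1-Cy5 arrays and 2.14 in the Prox1-Cy3 profile. Its mean score of 1.37 leans on the Cy3 profile, which lay 1.53 above the Cy5 mean, the widest gap in the set. The 4 members that serve only as targets thus split, with Ankrd1 and Axl above 0, Ctgf below 0 and Cyr61 on both sides.

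Of the regulators, Lats2 and Tead1 scored high and Yap1 did not. Lats2, the kinase that phosphorylates YAP and is itself a YAP target, averaged 0.98, 1.12 and 0.96 over 4 features on the Prox1-Cy5 arrays and 1.64 in the Prox1-Cy3 profile, with a mean score of 1.33. Tead1, a DNA-binding partner of YAP, averaged 1.29, 1.15 and 1.25 over 3 features on the Prox1-Cy5 arrays and 1.86 in the Prox1-Cy3 profile, with a mean score of 1.54. In both genes the Cy3 profile exceeded every Cy5 array. Yap1 scored 0.039, 0.0055 and −0.054 on the Prox1-Cy5 arrays and 0.25 in the Prox1-Cy3 profile, through 1 feature, with a mean score of 0.12. Its RNA ratio was close to 0 on every profile, and such a ratio says nothing of the phosphorylation or location of the YAP protein, which these arrays do not measure.

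Single features of Lats2 and of Tead1 differed among themselves. For Lats2, features 1 and 2 had mean scores of 2.16 and 1.91, feature 3 had 1.25 and feature 4 had 0.0040. Features 1 to 3 carry the same transcript accession and feature 4 another one. Feature 4 scored 0.28, 0.11 and 0.31 on the Prox1-Cy5 arrays and −0.22 in the Prox1-Cy3 profile, so it stood near 0 where the others were high. For Tead1, feature 1 scored 1.45, 1.53 and 1.38 on the Prox1-Cy5 arrays and 3.05 in the Prox1-Cy3 profile, and feature 2 scored 2.24, 1.82 and 2.0 on the Prox1-Cy5 arrays and 1.74 in the Prox1-Cy3 profile. Feature 3 of Tead1 was lower, at 0.18, 0.11 and 0.38 on the Prox1-Cy5 arrays and 0.78 in the Prox1-Cy3 profile, yet it stayed above 0 on every profile. Of all 18 features 11 kept 1 sign over the 4 profiles. The share of all features on the arrays that did so was not counted, so nothing is read from this number. The gene means of Lats2 and Tead1 thus combine high and low features, while Amotl2, Ctgf and Ankrd1 rest on 1 feature each.

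**Figure D2:**
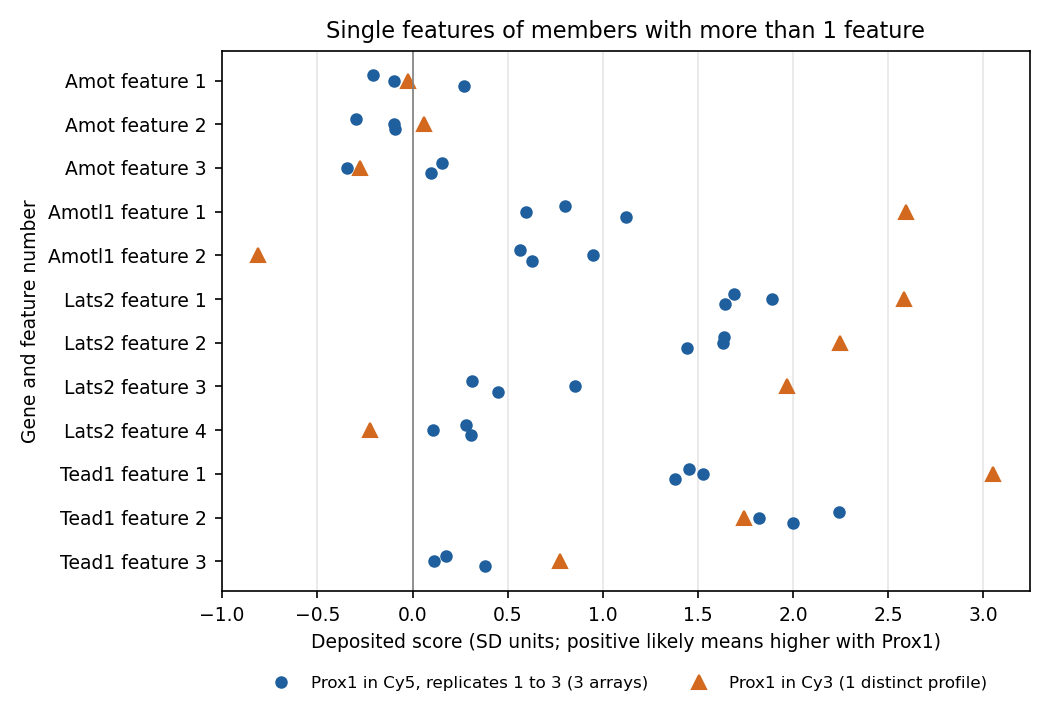
Deposited score in SD units of every single feature of the 4 genes with more than 1 feature, numbered within a gene from the highest mean score down, with circles for the 3 Prox1-Cy5 arrays and a triangle for the Prox1-Cy3 profile. Amotl1 features 1 and 2 share the circles' range but have triangles at 2.59 and −0.81, and Lats2 feature 4 lies near 0 while features 1 and 2 exceed 1.4 on every profile.

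Ordered by mean score the genes ran Amotl2 (4.16), Ankrd1 (1.87), Tead1 (1.54), Axl (1.37), Lats2 (1.33), Amotl1 (0.83), Yap1 (0.12), Amot (−0.074), Cyr61 (−0.18) and Ctgf (−1.99). These are scores of a difference between both RNAs and give no order of expression. Amotl2 lay above and Ctgf below every other member on all 4 profiles. Between them, the ranges over profiles of neighbours overlapped for Ankrd1 with Tead1, Tead1 with Axl, Axl with Lats2, Yap1 with Amot and Amot with Cyr61. These ranges join both orientations. Read profile by profile, Ankrd1 lay above Tead1 and Tead1 above Axl on each Prox1-Cy5 array, with both orders reversed in the Prox1-Cy3 profile. Lats2 with Amotl1 and Amotl1 with Yap1 did not overlap as gene means, although Lats2 feature 4 and Amotl1 feature 2 were negative in the Prox1-Cy3 profile. The 3 genes whose scores lay closest to those of Amotl2 by Euclidean distance over the 4 profiles were Lcn4 (distance 0.78), Fam71f1 (0.79) and Mamdc2 (1.07). Lcn4 scored 3.02, 3.02 and 3.36 on the Prox1-Cy5 arrays and 4.31 in the Prox1-Cy3 profile, which like Amotl2 was highest in the Cy3 profile.

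In the members other than Amot the gap between orientations exceeded the SD over the Prox1-Cy5 arrays. In 6 of the 10 genes the Cy3 profile lay above every Cy5 array, in 3 it lay below, and only for Amot did it fall among them. The share of all genes and unnamed features in these positions was not counted. Over all features the difference between orientations had an SD of 1.06, beside a median SD of 0.15 over the Prox1-Cy5 arrays. Such gaps were thus not particular to the members. The gap between the Cy3 profile and the Cy5 mean ran from 0.013 in size (Amot) to 1.53 (Axl), while the SD over the Prox1-Cy5 arrays ran from 0.040 (Ankrd1) to 0.30 (Ctgf). Scores kept 1 sign over the 4 profiles in 7 of the 10 genes, 6 of them above 0 and Ctgf below 0, beside 41.8% of all 28617 genes and unnamed features. The dye and any other difference between the orientations cannot be told apart.

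**Figure D3:**
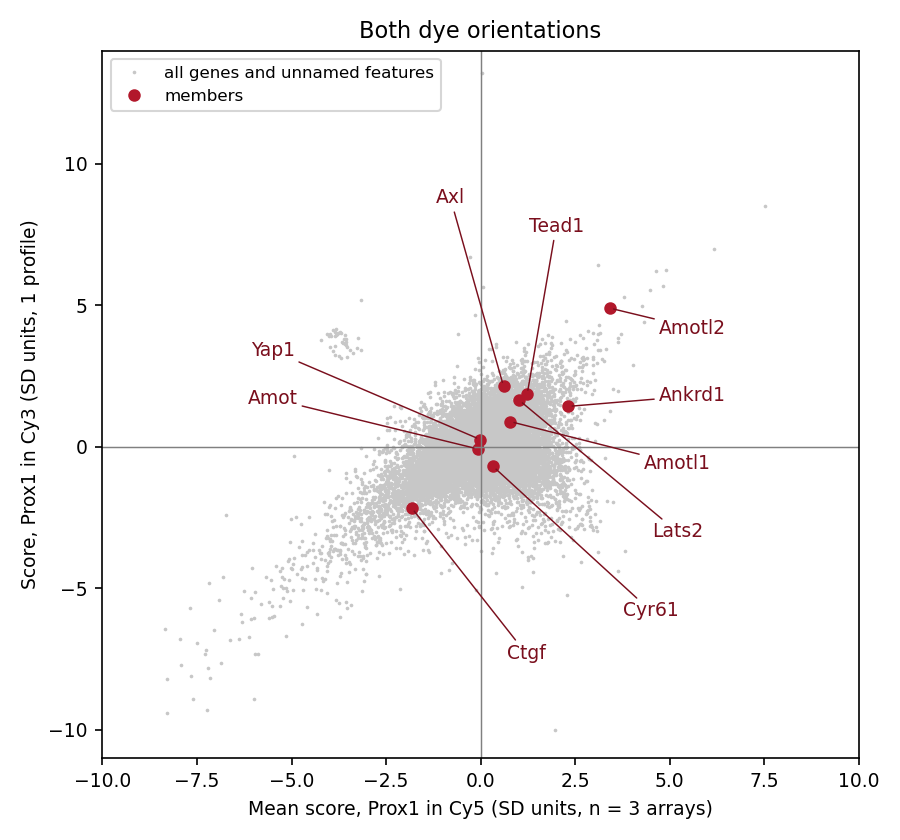
Score in the Prox1-Cy3 profile (vertical axis) against the mean score on the Prox1-Cy5 arrays (horizontal axis, n = 3 arrays), both in SD units, for all genes and unnamed features (grey) and the 10 members (red). Amotl2 stands at the upper right edge (3.41 and 4.90), Ctgf at the lower left of the main cloud (−1.82 and −2.16), and Amot and Yap1 near the origin.

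All 28617 genes and unnamed features were fitted with limma, with the dye orientation as a random block and Benjamini-Hochberg adjustment over all of them. At an adjusted p of 0.05, 5 of the 10 members passed, 4 higher (Amotl2, Ankrd1, Lats2 and Tead1) and 1 lower (Ctgf), beside 8.41% of all tested (3.38% higher and 5.03% lower). With a fixed dye term in place of the block, which leaves the gap between orientations out of the error, 7 passed, 6 higher and 1 lower, Amotl1 and Axl being added, beside 45.0% of all tested (25.3% higher and 19.7% lower). Since the members were chosen with this contrast known, nothing is read from these counts. Their median mean score was 1.08, beside 0.033 for all genes and unnamed features. From the Prox1-Cy5 arrays by themselves 8 passed, beside 58.6% of all tested. In the fit with the block, Lats2 did not pass whichever Cy5 replicate was left out, nor Ctgf without replicate 3.

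The remaining genes of the pathway were grouped by role in 8 lists of 75 genes, of which 70 were measured. In the fit with the block 4 of them rose and 4 fell with Prox1 (11.4% of 70, beside the 8.41% of all tested), and their median effect was 0.13 SD units, beside 0.037 for all tested. Effects are given in SD units with their SE over 4 profiles. Where counts at an unadjusted p under 0.05 follow, 20.3% of all tested lay under it in that fit (10.3% higher and 9.97% lower).

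Of 24 further target genes 0 rose and 4 fell in the fit with the block (3.38% and 5.03% of all tested). With the fixed dye term 6 of 24 rose and 10 fell (25.3% and 19.7% of all tested). Of 16 genes that make up the rest of a YAP/TEAD signature drawn from human cancers 3 fell, 0 rose and 13 did not pass, with a median effect of −0.0064 (at an unadjusted p under 0.05, 2 higher and 4 lower). F3, which encodes tissue factor, the trigger of coagulation, scored −3.51, −3.35 and −3.22 on the Prox1-Cy5 arrays and −2.64 in the Prox1-Cy3 profile, and its effect was −3.02 ± 0.26 (limma adjusted p = 0.0025). Both F3 features passed singly. Myof, a membrane repair protein of the ferlin family, had an effect of −1.23 ± 0.21 (limma adjusted p = 0.021), and Igfbp3, which binds insulin-like growth factors, one of −1.09 ± 0.22 (limma adjusted p = 0.033). Of their 3 features each, 2 passed singly for Myof and 1 for Igfbp3. Gadd45a, a growth arrest gene, went the other way at 1.40 ± 0.34 and did not pass (limma adjusted p = 0.062). Among 8 measured genes of 10 others reported as YAP targets 1 fell, 0 rose and 7 did not pass, with a median effect of −0.54 (unadjusted, 1 higher and 3 lower). The gene that fell was Thbs1, whose product thrombospondin is a matrix protein that activates TGF-β, with scores of −3.52, −3.40 and −3.45 on the Prox1-Cy5 arrays and −2.25 in the Prox1-Cy3 profile and an effect of −2.90 ± 0.31 (limma adjusted p = 0.0046). All 3 features of Thbs1 passed singly. Tgm2 (transglutaminase, −0.98 ± 0.25), Ptgs2 (cyclooxygenase, −0.81 ± 0.23) and Edn1 (endothelin, 1.15 ± 0.31) did not pass (limma adjusted p = 0.068, 0.10 and 0.086). Of the targets named, F3, Myof, Igfbp3, Thbs1, Tgm2, Ptgs2 and Ctgf thus lay below 0 on every profile. Gadd45a, Edn1, Amotl2, Ankrd1, Axl and, as a gene mean, Lats2 lay above 0 on every profile, and Cyr61 lay on both sides. Leaving out single Cy5 replicates ended the calls of Igfbp3 (replicate 1, 2 or 3; adjusted p = 0.082 to 0.087) and Myof (replicate 2 or 3; adjusted p = 0.060 and 0.059), while F3 and Thbs1 passed each time.

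**Figure D4:**
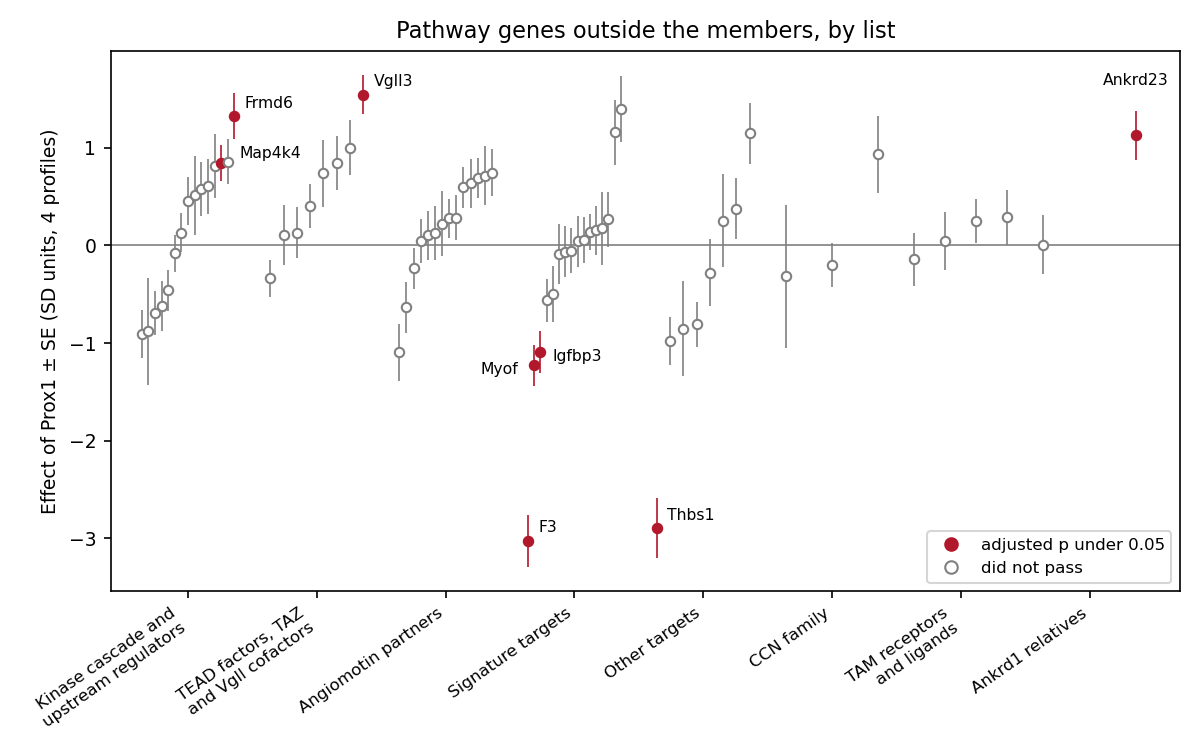
Effect of Prox1 in SD units ± SE (limma, 4 profiles, orientation as a random block) for each measured gene of the 8 pathway lists, ordered by size within its list, with filled red points where the adjusted p was under 0.05. F3 and Thbs1 lie lowest at −3.02 and −2.90, Vgll3 and Frmd6 are the highest filled points at 1.55 and 1.33, and most genes are open points.

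Among the regulators beside Lats2 and Tead1, few genes passed the fit with the block as gene means, and those that passed were higher. Of all tested, 3.38% passed higher and 5.03% lower in that fit, and 25.3% and 19.7% with the fixed dye term. Of 15 measured genes of the kinase cascade and its upstream regulators 2 rose, 0 fell and 13 did not pass, with a median effect of 0.45 (unadjusted, 4 higher and 3 lower; fixed dye term, 8 higher and 5 lower). Frmd6, a membrane-bound FERM domain protein upstream of the cascade, scored 1.23, 1.15 and 1.47 on the Prox1-Cy5 arrays and 1.37 in the Prox1-Cy3 profile and had an effect of 1.33 ± 0.23 (limma adjusted p = 0.023), and 2 of its 3 features passed singly. Map4k4, a kinase that can phosphorylate Lats1 and Lats2, had an effect of 0.85 ± 0.19 (limma adjusted p = 0.045), and only 1 of its 3 features passed singly. Wwc2, a relative of the scaffold Kibra (0.86 ± 0.23), and Stk38l, a kinase related to Lats2 (−0.91 ± 0.25), did not pass (limma adjusted p = 0.084 and 0.087). The 2 features of Wwc2 differed in sign (mean scores −0.22 and 1.88), and 1 of them passed singly. Tested singly, 7 of the 15 genes had a feature that passed. The share of all genes with such a feature was not counted. Outside Frmd6, Map4k4 and Wwc2 the direction of these features is not given here. Of 8 TEAD factors and their cofactors 1 rose, 0 fell and 7 did not pass, with a median effect of 0.57 (unadjusted, 3 higher and 0 lower; fixed dye term, 5 higher and 1 lower). This was Vgll3, a cofactor that binds TEAD factors without YAP, which scored 1.58, 1.42 and 1.49 on the Prox1-Cy5 arrays and 1.61 in the Prox1-Cy3 profile and had an effect of 1.55 ± 0.20 (limma adjusted p = 0.0083). Only 1 of its 2 features passed singly (mean scores 0.79 and 2.31). Tead4 (1.0 ± 0.29), Tead2 (0.84 ± 0.28) and Vgll4, which competes with YAP for TEAD factors (0.74 ± 0.34), did not pass (limma adjusted p = 0.098, 0.15 and 0.31). Frmd6 did not pass without replicate 1 (adjusted p = 0.062), and Map4k4 whichever Cy5 replicate was left out (adjusted p = 0.10 to 0.11) or with columns centred on their medians (adjusted p = 0.055).

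Junction partners and regulators of the angiomotins gave no call as gene means in the fit with the block. Tested singly, 1 of the 3 features of Lin7c passed (mean scores of its features from 0.11 to 1.19). Of 14 measured genes 0 passed in limma with the block, 5 had an unadjusted p under 0.05 (4 higher, 1 lower) and 10 passed with the fixed dye term (8 higher, 2 lower), beside 45.0% of all tested (25.3% higher and 19.7% lower). The ubiquitin ligase gene Nedd4, whose product can mark angiomotins for degradation, stood at −1.10 ± 0.29, the tight junction gene Tjp1 at 0.69 ± 0.20, the polarity gene Lin7c at 0.74 ± 0.24, and Tnks, whose product tankyrase labels angiomotins for destruction, at 0.59 ± 0.21 (limma adjusted p = 0.077, 0.11, 0.14 and 0.17).

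Relatives of the target genes gave 1 call. Beside the counts below, 8.41% of all tested passed with the block and 45.0% with the fixed dye term. A share of 20.3% lay under an unadjusted p of 0.05. These lists are short, so nothing is read from a count of 0. In the CCN family, to which Ctgf and Cyr61 belong, 0 of 3 measured genes passed in limma with the block (0 at an unadjusted p under 0.05, 1 with the fixed dye term), Ccn4 standing at 0.93 ± 0.39, Ccn5 at −0.20 ± 0.22 and Ccn3 at −0.32 ± 0.73 (limma adjusted p = 0.26, 0.81 and 0.96). Of the receptors related to Axl and their ligands, 0 of 4 passed in the same fit (0 unadjusted, 2 with the fixed dye term): Tyro3 stood at 0.29 ± 0.28, Gas6 at 0.25 ± 0.22, Mertk at 0.044 ± 0.29 and Pros1 at −0.14 ± 0.27 (limma adjusted p = 0.75, 0.71, 0.99 and 0.94). Gas6, the ligand of Axl, thus gave no call beside the score of its receptor. Of the muscle ankyrin repeat genes related to Ankrd1, Ankrd23 rose by 1.13 ± 0.25 (limma adjusted p = 0.047), and Ankrd2 stood at 0.0080 ± 0.30 (limma adjusted p = 1.0). Neither of the 2 features of Ankrd23 passed singly, and its call ended whichever Cy5 replicate was left out (adjusted p = 0.095 to 0.11) or with columns centred (adjusted p = 0.058).

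Genes that mark liver cell types were read beside these results, since several YAP targets are also expressed by mesenchymal and endothelial cells. In limma with the block 0 of 10 stellate cell and fibroblast markers passed (effects from −1.30 for Des to 0.73 for Dcn), 0 of 8 endothelial markers (−0.18 for Cdh5 to 0.15) and 0 of 5 measured macrophage markers (−0.055 to 0.44 for Marco). At an unadjusted p under 0.05 these were 2, 0 and 0, and with the fixed dye term 5, 0 and 2. With the block 8.41% of all tested passed (3.38% higher, 5.03% lower). With the fixed dye term 45.0% passed (25.3% higher, 19.7% lower), and 20.3% lay under the unadjusted p. The 2 features of Dcn differed in sign (mean scores −0.064 and 1.55), and 1 of them passed singly. Of 8 hepatoblast and hepatocyte markers (effects from −5.71 to 0.42) 3 fell and 5 did not pass, beside 5.03% of all tested that fell, and with the fixed dye term 2 rose and 6 fell. Among the 3 were Trf (−5.71 ± 0.31, limma adjusted p = 0.00072) and Hnf4a (−2.96 ± 0.19, limma adjusted p = 0.00097). For Hnf4a 2 of its 3 features passed singly, and their mean scores ran from −4.61 to −0.17. Of 4 measured cholangiocyte markers (effects from −3.47 to 0.53) 1 fell and 3 did not pass, and with the fixed dye term 1 rose and 2 fell. The marker that fell was Krt19 (−3.47 ± 0.63, limma adjusted p = 0.026), a call that ended whichever Cy5 replicate was left out (adjusted p = 0.061 to 0.077). Both RNAs came from a cell line, so these markers do not count the cell types of a tissue. A smaller share of cells with a marker's RNA and less of that RNA per cell cannot be told apart. The part of cell identity in the scores of the YAP targets was not tested.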

How the data were processed

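For each feature the authors deposited a score on every array, whose SD was 1 in each of the 6 columns. How the background was corrected, how arrays were normalized and the log base of the scores: not given in the sources used here. Per the labels' protocols, RNA was DNase-treated, copied, amplified by PCR and labelled with Cy3 or Cy5, and amplification can distort ratios. Of 44290 features 41230 had a value. Features with exactly 1 annotated symbol (31700) were averaged per gene and the others kept singly, giving 28617 units. Signal over background was not analysed here, and the small number of arrays limits how precise any value is.

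The 4 distinct profiles entered limma 3.58.1 (R 4.3.3): an intercept, a random block for the dye orientation (consensus 0.793 from duplicateCorrelation), eBayes and Benjamini-Hochberg adjustment over all units at 0.05. The fixed dye term was an alternative because its residual spread rests on the Prox1-Cy5 arrays. Other alternatives left out the orientation, the Cy3 profile or single replicates, centred the columns, or tested features singly.

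Members, gene lists and tests were chosen with earlier results of these data known. Named are the members, Prox1, from each pathway list the up to 4 genes (from each marker list the 2) with the smallest p, and the 3 genes nearest to Amotl2. Alb, the third hepatocyte marker that fell, is outside this rule. Cyr61 and Ctgf were matched as Ccn1 and Ccn2. Promoter sequences are RefSeq's.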

Additional observations from a re-analysis of the deposited data

Results flagged for a closer look

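Several genes and features scored on opposite sides of 0 in the 2 dye orientations. All 3 arrays with Prox1 in Cy5 lay on 1 side and the profile with Prox1 in Cy3 on the other. The difference (Cy3 minus the Cy5 mean) was not tested, because Prox1 in Cy3 gave 1 distinct profile. Among the members it was −1.02 SD units for Cyr61 (−0.696 in Cy3, 0.329 in Cy5), −1.52 for Amotl1 feature 2, −0.458 for Lats2 feature 4 and 0.223 for Amot feature 2. Among the relatives of target genes it was −0.998 for Tyro3, 0.798 for Pros1, 0.808 for Ankrd2 and 0.511 for Ccn5. Among the cell type markers it was 1.01 for Lyz2, −0.886 for Marco and −0.656 for Tek.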

How the results depend on the processing

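Leaving out the Cy3 profile and modelling the orientation in another way moved the counts most. In place of the 2406 calls over all genes and unnamed features, 12879 passed with a fixed dye term, 6869 with no orientation term, 16781 on the Prox1-Cy5 arrays only and 1232 to 1388 when single Cy5 replicates were left out, where the block correlation was kept at the value of all 4 profiles. The share of higher among these calls was 40.2%, and it was 56.2%, 49.8%, 59.0% and 31.2% to 32.6% under those settings in turn. The members that passed were 5, against 8 on the Prox1-Cy5 arrays only, 7 with a fixed dye term, 6 with no orientation term and 3 to 4 without single replicates (Lats2 was lost each time, and Ctgf without replicate 3); all 5 remained under the other settings. Of the 70 pathway genes 8 passed, against 49 with a fixed dye term, 30 with no orientation term, 52 on the Cy5 arrays alone, 13 with features tested singly and 4 without each single replicate. F3, Thbs1 and Vgll3 passed under each of these settings, Vgll3 through 1 of its 2 features where features were tested singly. The members' median mean score of 1.08 was 0.90 as a plain mean over the 4 profiles and 0.69 on the Cy5 arrays alone. Mean scores of Cyr61 (−0.18) changed sign to 0.073 and 0.33 under these settings, and Yap1 to −0.0032 under the last. Ankrd2 was −0.37 on the Cy5 arrays alone and passed there (adjusted p = 0.024). No paired analysis was possible because the orientations share no replicate numbers. Depth and signal over background are unknown, so no limit of detection can be given.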
